A study of Zea mays with 9 samples.

Results

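Chromatin accessibility after 12 h of tunicamycin was set against 0 h in roots of maize seedlings, over all 38703 genes of the deposited table. The part of the study described here is 6 of its 9 libraries, 3 at 12 h and 3 at 0 h, chosen by their labelled time point and not by any measured value. All plants were of the inbred line B73, germinated for 2 days and grown on for 7 more, and every library, 0 h included, carries tunicamycin as its agent in the labels. The drug was given to seedlings in DMSO at a labelled 5 mg per ml, which may be the stock, and nuclei were taken from flash-frozen root, although a further label speaks of protoplasts. The 3 libraries at 6 h were used to estimate spread and to rank genes, and their values are given beside the stretches, called blocks and named genes, but not for the level classes, which they ranked. No library kept for 12 h without the drug was analysed here, so the drug and the elapsed time cannot be told apart.

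Tunicamycin stops the first step of N-linked glycan synthesis, so that glycoproteins misfold in the endoplasmic reticulum (ER). Plant cells answer through the unfolded protein response, in which the membrane sensor IRE1 splices the mRNA of a bZIP transcription factor and membrane-anchored bZIP factors are cut free, and chaperone genes are switched on. Under prolonged stress the same pathway is tied to cell death, and the series concerns that transition in maize. ATAC-seq (assay for transposase-accessible chromatin) measures where a transposase can cut nuclear DNA, and open promoters of active genes usually give the most reads. In bulk nuclei, a change in the make-up of cell types and a change of accessibility within cells cannot be told apart.

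The table gives only gene identifiers of the form Zm00001d followed by a number, and it pairs none of them with a name. Of these identifiers 0 were found in the RefSeq gene table for B73, so genes of the ER stress response, root markers and promoter sequences were not analysed here. The values are whole-number coverage in which low values pile up on steps of 73. The value 73 occurred 5648 times, while each of the 6 nearest whole numbers occurred 45.3 times on average. One step is called a read below. Each library was divided by its total and multiplied by the mean total, which gives the scaled coverage used throughout. Numbers of reads are of scaled coverage too. Totals were 35.8 to 36.8 megabases at 12 h and 35.0 to 39.1 megabases at 0 h, and the median gene had 11 reads. The 6 h libraries were shallower, with 31.1, 33.1 and 28.9 megabases. The labels give no batch or date, so any batch that ran with time cannot be told apart from it.

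Weakly covered genes took a larger share of the coverage at 12 h and strongly covered genes a smaller one. Shares in a library sum to a whole, so a smaller share in some genes entails a larger share in others. All changes given here are relative to the library total, and absolute gain or loss was not measured. Genes were ranked on the mean of the 6 h libraries, which belong to neither group, and cut into 10 classes of equal size, numbered from the lowest coverage. Class 10, genes with at least 1667 scaled coverage at 6 h, held 21.7%, 21.7% and 21.6% of all coverage in the 12 h libraries and 22.3%, 22.6% and 22.8% in the 0 h libraries. The groups did not overlap, and the relative difference of the mean share was -4.17%. Class 1, genes with at most 277 at 6 h, held 2.23%, 2.24% and 2.27% at 12 h and 2.10%, 2.06% and 2.00% at 0 h, a share 9.37% larger at 12 h.

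The classes in between formed a graded series. The share was larger at 12 h by 6.56% in class 2, 4.69% in class 3, 4.10% in class 4, 2.54% in class 5, 0.882% in class 6 and 0.514% in class 7. In class 8 the difference was -0.489% with overlapping groups, and in class 9 it was -2.16%. In the other 9 classes the 12 h and 0 h libraries did not overlap. The exact permutation test, two-sided, gave p = 0.1 for each of those 9, the smallest that 3 against 3 libraries allow, and p = 0.2 for class 8, so none could pass 0.05 (adjusted over the 10 classes, 0.111 and 0.2).

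**Figure D1:**
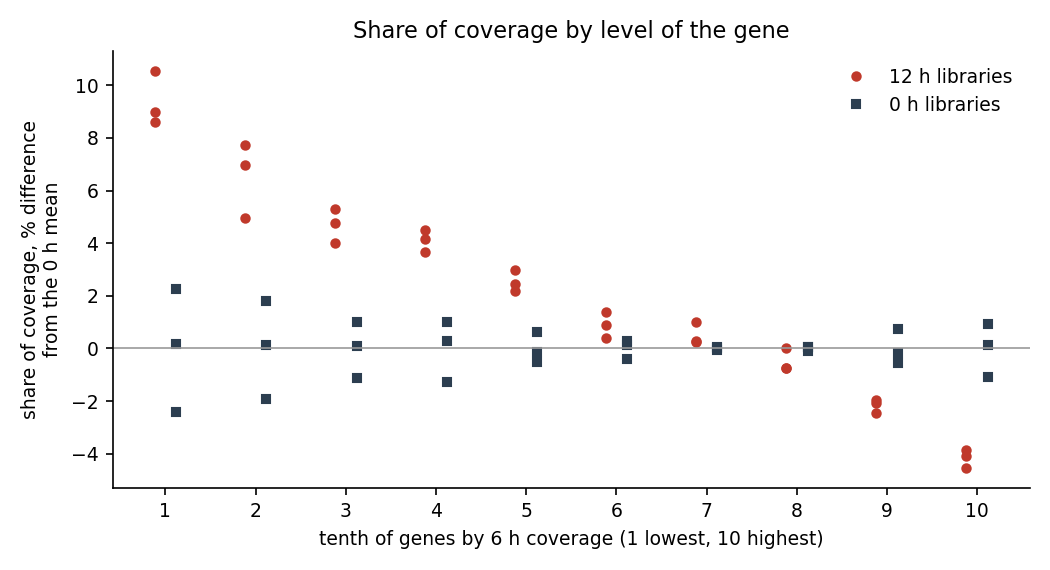
Share of coverage held by each of 10 classes of genes, as percent difference from the 0 h mean (vertical axis), against class by 6 h coverage (horizontal axis), for single 12 h (circles) and 0 h (squares) libraries. The 12 h circles lie above all 0 h squares in classes 1 to 7 and below them in classes 9 and 10, with mean differences of 9.37% in class 1 and -4.17% in class 10.

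Single genes in the highest class were more often lower at 12 h, and those in the lowest classes more often higher. In class 10 the median log2 change at 12 h was -0.07, and 38.1% of its 3871 genes were higher at 12 h. In class 1 the median was 0.07 with 56.8% of 3870 genes higher, and in class 2 it was 0.09 with 57.8% of 3870. The medians thus did not follow the order of the shares in every class. The class 1 median depended on the pseudocount of 73, and with a pseudocount of 1 it was 0.12. Of all genes, 2298 had every 12 h library above every 0 h library (5.94%), and 2042 had every one below (5.28%). Class 10 held 153 of those higher genes and 356 of those lower genes, whereas class 1 held 261 and 126. The median standard error of a single gene's log2 change was 0.32, so these differences were seen over classes and not gene by gene.

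Along the order of the identifiers, the ends of long runs held a smaller share at 12 h and stretches nearer the middle a larger one. The table lists 38405 genes in 10 long runs in which neighbouring rows have neighbouring numbers, between 2636 and 5834 genes each, and 298 genes outside them. Such runs follow the order of genes on an assembly, but they were not matched to chromosomes here. Each run was cut into 10 stretches of about equal gene number, and the runs were pooled. Here too a smaller share in some stretches entails a larger share in others. The first stretch held 10.7%, 10.6% and 10.6% of the coverage of all runs at 12 h and 10.8%, 10.8% and 10.8% at 0 h, a relative difference of -1.55%. The last stretch held 11.3%, 11.4% and 11.4% at 12 h and 11.6%, 11.5% and 11.5% at 0 h, a difference of -1.48%. In both, all 12 h libraries lay below all 0 h libraries.

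Stretches 3 to 5 went the other way. Their shares were larger at 12 h by 1.51%, 1.54% and 1.69%, again with no overlap between the groups. The sixth, seventh and eighth stretches differed by 0.19% to 0.44% with overlapping groups, and the second and ninth by -0.615% and -0.882% without overlap. The exact permutation test, two-sided, gave p = 0.1 for the 7 stretches without overlap, again the smallest possible (adjusted over the 10 stretches, 0.143). At 6 h, set against the same 0 h libraries, the first and last stretches differed by -1.77% and -3.02%, and stretches 3 to 5 by 2.62%, 2.88% and 3.49%.

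**Figure D2:**
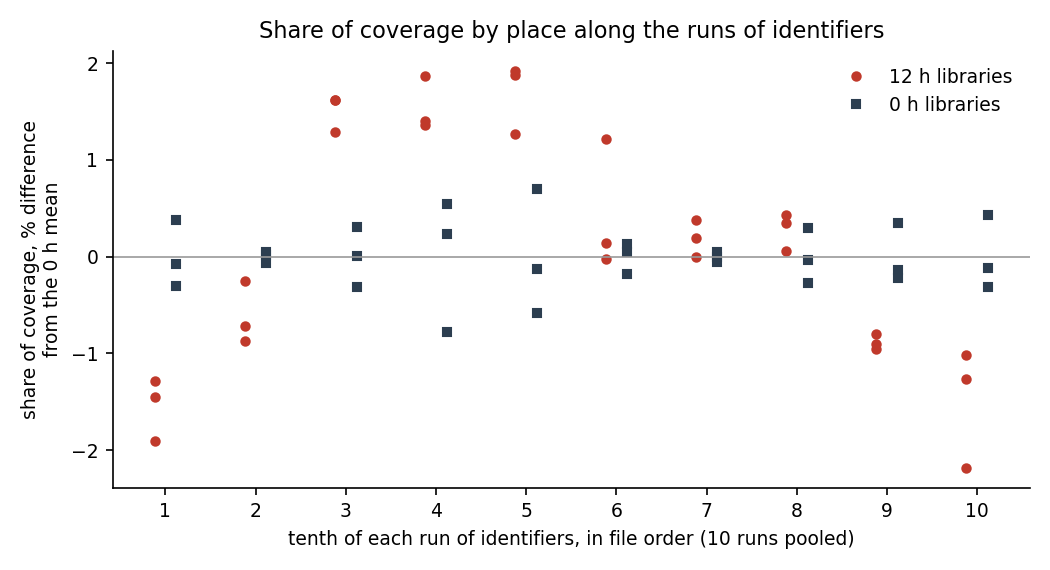
Share of coverage held by each of 10 stretches of the runs of identifiers, as percent difference from the 0 h mean (vertical axis), against place along the run (horizontal axis, runs pooled), for single 12 h (circles) and 0 h (squares) libraries. The 12 h circles lie below every 0 h square in stretches 1, 2, 9 and 10 and above every one in stretches 3 to 5.

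The end-to-middle pattern was present in most runs taken alone. With the first and last stretches joined as outer and stretches 3 to 5 as inner, a grouping made after the profile was seen, the outer genes held 22.0% ± 0.0460 of coverage at 12 h, against 22.3% ± 0.0780 at 0 h (SD, n = 3 each). The inner genes held 26.2% ± 0.0329 at 12 h, against 25.8% ± 0.0605 at 0 h (SD, n = 3 each). At 6 h the outer genes held 21.8% ± 0.0827 and the inner genes 26.6% ± 0.0714 (SD, n = 3 each). Within single runs the outer share was lower at 12 h in 10 of 10 runs, without overlap in 5. The inner share was higher in 9 of 10 runs, without overlap in 6, and the first run in the file was the exception. The runs come from the same 6 libraries, so they are not independent replicates.

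Place along the run and level of coverage went together. Outer genes were more often strongly covered, 13.4% of them falling in class 10, against 6.47% of inner genes. When genes were first cut by 6 h coverage into 3 groups of equal size, the outer share of the most covered group was 24.2% ± 0.0629 at 12 h, against 24.4% ± 0.0948 at 0 h (SD, n = 3 each). Its inner share was 22.0% ± 0.0136 at 12 h, against 21.7% ± 0.0841 at 0 h (SD, n = 3 each). Neither pair of groups overlapped. In the middle group the outer share differed by -0.294 points without overlap, while the inner share differed by 0.0326 points with overlapping groups. In the least covered group the inner share was 0.428 points higher without overlap, and the outer share differed by -0.273 points with overlap. The exact permutation p was 0.8 and 0.2 for those 2 overlapping comparisons, and how far level accounts for the pattern by place was not tested beyond these groups. Class 10 genes were lower at 12 h in both places, with differences of -4.45% among outer and -3.19% among inner genes, and class 1 genes were higher in both, by 7.96% and 11.5%.

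Blocks of neighbouring identifiers were then tested one by one to locate the differences. Coverage was summed over each block of 100 consecutive numbers with at least 20 genes, which gave 518 blocks of 25 to 94 genes and a median of 934 reads. Of these, limma with Benjamini-Hochberg adjustment called 4 higher at 12 h (0.772%) and 5 lower (0.965%) at an adjusted p under 0.05. With trimmed-mean scale factors (TMM) in place of totals, which moved the median block change from 0.00 to -0.01, the split was 1 higher and 8 lower. Groups did not overlap in 63 blocks that were higher at 12 h (12.2%) and 39 that were lower (7.53%). Library order alone gives a rate of 0.1 for both directions together. The called changes were small, 9.35% to 10.9% for the gains and -10.1% to -7.89% for the losses.

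The block of numbers 12100 to 12199, with 73 genes at 85% of the way along the eighth run, had the largest called loss. Its summed scaled coverage was 56.2, 55.2 and 54.3 kilobases at 12 h and 61.8, 62.0 and 60.5 kilobases at 0 h. The log2 change of -0.15 (95% interval -0.23 to -0.08) had a limma adjusted p of 0.0151, and 46 of its genes were lower against 27 higher. The block 12500 to 12599, near the end of the same run, held 82.0, 88.2 and 89.2 kilobases at 12 h and 94.1, 95.03 and 92.2 kilobases at 0 h. The groups were apart, but replicate 1 at 12 h stood well below the other two. It changed by -0.12 on the log2 scale (limma adjusted p 0.0263).

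At the start of the eighth run, the block 8500 to 8599 held 77.3, 77.4 and 78.8 kilobases at 12 h and 86.7, 85.6 and 84.8 kilobases at 0 h. All 12 h libraries lay well below all 0 h libraries, with a log2 change of -0.14 and a limma adjusted p of 0.0151. The block 38400 to 38499 in the sixth run held 79.6, 87.3 and 79.4 kilobases at 12 h and 93.3, 88.5 and 89.1 kilobases at 0 h, a log2 change of -0.14 (limma adjusted p 0.0151). There, replicate 2 at 12 h came close to the lowest 0 h library. This block lay 79.6% of the way along its run. The last of the losses, the block 47600 to 47699 at 73.7% of the ninth run, had a log2 change of -0.13 and a limma adjusted p of 0.0222.

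Among the gains, the block 47100 to 47199 lay in the ninth run too, 500 numbers before that loss. It held 54.6, 53.6 and 55.3 kilobases at 12 h and 47.0, 51.7 and 48.8 kilobases at 0 h, a log2 change of 0.15 (95% interval 0.07 to 0.23, limma adjusted p 0.0263). Of its 75 genes 53 were higher at 12 h and 22 lower. The block 6100 to 6199 in the second run held 71.5, 70.1 and 73.7 kilobases at 12 h and 65.4, 64.2 and 65.0 kilobases at 0 h, a log2 change of 0.14 (limma adjusted p 0.0154). These 2 gains lay 60% and 70% of the way along their runs. The block 53500 to 53599 had a log2 change of 0.14 (limma adjusted p 0.0256). It lay towards an end, 89.2% of the way along the fourth run. The block 10800 to 10899, at 56.1% of the eighth run, had a log2 change of 0.13 (limma adjusted p 0.0370). The next gain, 40600 to 40699 in the third run, missed the threshold with a log2 change of 0.13 and a limma adjusted p of 0.0537.

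The 6 h libraries, set against the same 0 h libraries, had log2 ratios of -0.13 in block 12100, -0.12 in 12500, -0.14 in 8500, -0.11 in 38400 and -0.04 in 47600. For the gains the 6 h ratios were 0.15 in block 47100, 0.05 in 6100, 0.10 in 53500 and 0.05 in 10800, the blocks being named by their first number. Both times share the 0 h libraries, and the blocks were picked for an extreme difference from them. Of all 518 blocks, 364 had the same sign at 6 h as at 12 h, so these ratios are a description.

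No called block rested on a single gene. The gene with the largest part in a called block's change carried between 8.65% and 17.2% of it, and without that gene the log2 changes were 0.12 to 0.14 for the gains and -0.15 to -0.11 for the losses. In the 4 gains 197 of 292 genes were higher at 12 h (67.5%), and in the 5 losses 161 of 403 were (39.95%), against 51.7% over all blocks. These shares come from the values that called the blocks and are given as a description. The calls were fragile to the libraries used. Leaving out 1 library at a time gave 0 to 10 called blocks, with 0 without 12 h replicate 1, 2 without 12 h replicate 2, 2 without 12 h replicate 3 and 4 without 0 h replicate 1. The median log2 value over a block's genes, in place of the sum, gave 0 called blocks and 45 at an unadjusted p under 0.05.

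**Figure D3:**
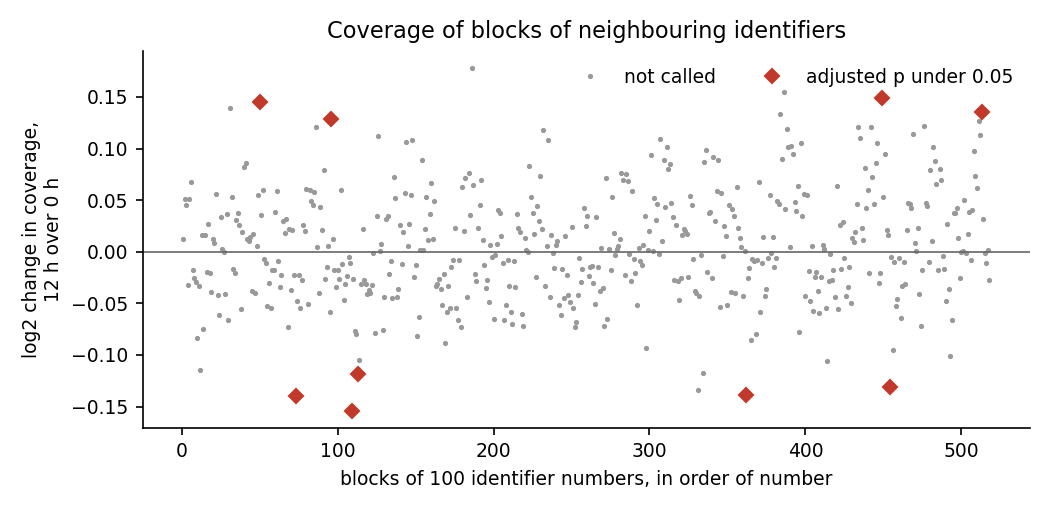
Log2 change in summed scaled coverage, 12 h over 0 h (vertical axis), of 518 blocks of 100 identifier numbers in order of number (horizontal axis). Diamonds mark the 9 blocks called by limma, 4 of them above 0 and 5 below, and grey points the 509 others.

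Wider blocks showed the differences in more of the table. With 500 numbers to a block, a width chosen after the narrower blocks had been seen, limma called 11 of 107 blocks higher and 10 lower at an adjusted p under 0.05 (19.6% in all). The lowest adjusted p was 0.000176, in the block 53000 to 53499 of the fourth run, which was 6.44% higher at 12 h over 337 genes. The block 40500 to 40999 of the third run was 6.63% higher and its neighbour 41000 to 41499 was 6.03% higher. The 11 gains ran from 3.29% to 6.63% and the 10 losses from -4.39% to -2.73%. The block 12000 to 12499 had the loss of -4.39%, and it was the 1 called wide block whose groups overlapped, with 380.2, 360.5 and 371.1 kilobases at 12 h and 393.7, 391.6 and 377.5 kilobases at 0 h. At 6 h, against the same 0 h libraries, the log2 ratios ran from 0.01 to 0.10 in the wide gains and from -0.09 to 0.04 in the wide losses, the block 35000 to 35499 being higher at 6 h. As with the narrower blocks, these ratios share the 0 h libraries used to pick the blocks and are a description.

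Most wide losses lay near run ends and most wide gains away from them. Of the 9 called losses that fell in 1 run, 8 were centred in the first or last 20% of it, against 1 of the 11 called gains and 37 of all 100 such blocks. The gain near an end was the block 53000 to 53499, which had the lowest p and lay 84.2% of the way along its run. These counts come from the same libraries as the profile along the runs and are given as a description. The called losses also had more coverage per gene at 6 h, with a median of 970.0, than the called gains, with 829, and all blocks had 904. When each of the 10 level classes was scaled to its own total in every library, 5 wide blocks remained called, 4 higher and 1 lower, and all 21 kept their direction. The median over genes called 3 wide blocks, and leaving out each library gave 10 to 16, 10 without 0 h replicate 2. Without 12 h replicate 3 there were 12 calls, and 13 without 0 h replicate 1. TMM scale factors gave 7 higher and 19 lower.

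The wider the block, the more alike were changes computed from separate libraries. A 12 h library over a 0 h library gave one change, and a second change came from another library of each time, in 18 such pairings. Over single genes the mean Pearson r between the paired changes was 0.026 (range 0.015 to 0.039). Over 2498 blocks of 20 numbers it was 0.119, over 518 blocks of 100 it was 0.254, over 262 blocks of 200 it was 0.348, and over 107 blocks of 500 it was 0.4998 (range 0.442 to 0.546). These are correlations over genes or blocks of the same libraries and are given as a description. Genes next to each other in number had log2 changes that were only weakly alike, with r = 0.039 over 38702 pairs and 0.038 without the 23 pairs of identical coverage. At 2 and 5 places apart r was 0.013 and 0.017.

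**Figure D4:**
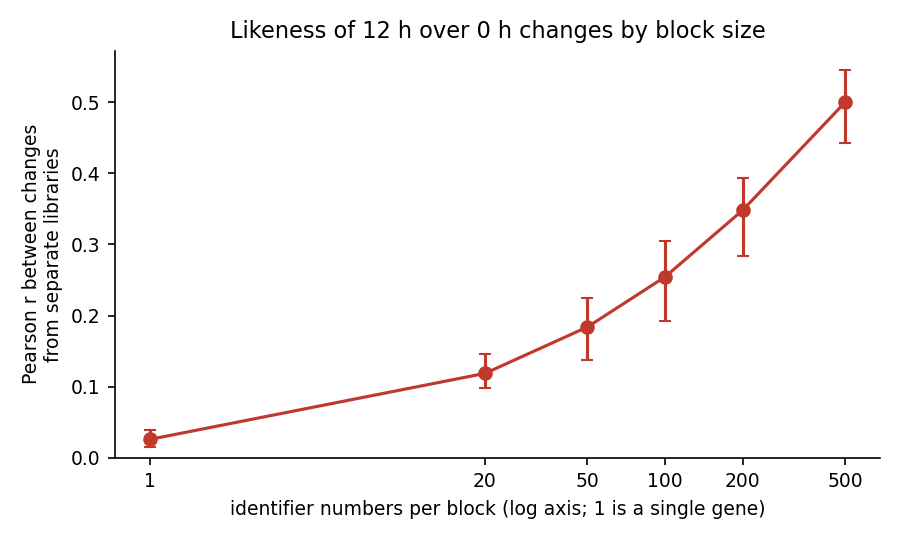
Pearson r between 12 h over 0 h changes computed from separate libraries (vertical axis, points the mean and bars the range over 18 pairings), against identifier numbers per block (horizontal log axis). The mean was 0.026 for single genes and 0.4998 for blocks of 500 numbers.

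Single genes gave no call. At an adjusted p under 0.05 limma called 0 of 38703 genes (0%), and also 0 with vooma weights. At an unadjusted limma p under 0.05, 1123 were higher (2.9%) and 959 lower (2.48%). Where nothing differs, that threshold is still passed at a rate of 0.05, both directions together. On a square-root scale limma called 2 genes, both higher at 12 h. Precision was enough to bound most well-covered genes. Among the 21543 genes that averaged at least 730 scaled coverage, or 10 reads, the 95% interval of 18710 lay within a 2-fold change either way (86.8%), against 5223 of the 17160 genes below that level (30.4%). Only 22 of the better-covered genes had an estimate beyond 2-fold.

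Among genes with at least that coverage and no overlap between the groups, Zm00001d013278 had the lowest p of those that were higher. Its scaled coverage was 1260.0, 1179 and 1214 at 12 h and 501, 188 and 477 at 0 h. The groups lay far apart, with 16 to 17 reads after scaling in each 12 h library and 3 to 7 in each 0 h library. The log2 change of 1.57 (SE 0.32) had a limma adjusted p of 0.150. At 6 h it had 1080.1, 945 and 875, between the other times. Zm00001d019241 came next, with 2273, 2593 and 2497 at 12 h and 1188, 1311 and 788 at 0 h. Its log2 change was 1.14 (SE 0.24, limma adjusted p 0.185), and its 6 h libraries at 1103, 1159 and 827 lay with those of 0 h.

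Among the genes that were lower, Zm00001d050598 had 693, 843 and 667 at 12 h and 1425, 1821 and 1884 at 0 h. Every 12 h library was below every 0 h library, with a log2 change of -1.14 (SE 0.26) and a limma adjusted p of 0.388. At 6 h it varied widely, with 1933, 959 and 1567. Zm00001d047613 had 1062, 1361 and 1352 at 12 h and 2874, 2548 and 1903 at 0 h, a log2 change of -0.91 (SE 0.22, limma adjusted p 0.475). At 6 h it had 1723, 1672 and 2279. This gene lies in the block 47600 to 47699 described above, where it carried 16.7% of the loss, and without it the block's log2 change was -0.11. On the log2 scale the threshold was passed by 0 of these 4 genes. Zm00001d019241 was among the 2 genes that limma called on the square-root scale.

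The 12 genes of lowest p in each direction, these 4 included, had log2 changes of 0.90 to 1.57 and of -1.38 to -0.62. Their limma adjusted p ran from 0.150 to 0.873 for the higher and from 0.388 to 0.826 for the lower genes. The 6 h mean lay between the 12 h and 0 h means in 10 of the 12 higher and 11 of the 12 lower genes. As both times share the 0 h libraries, and the genes were picked for an extreme difference from them, that place is a description.

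**Figure D5:**
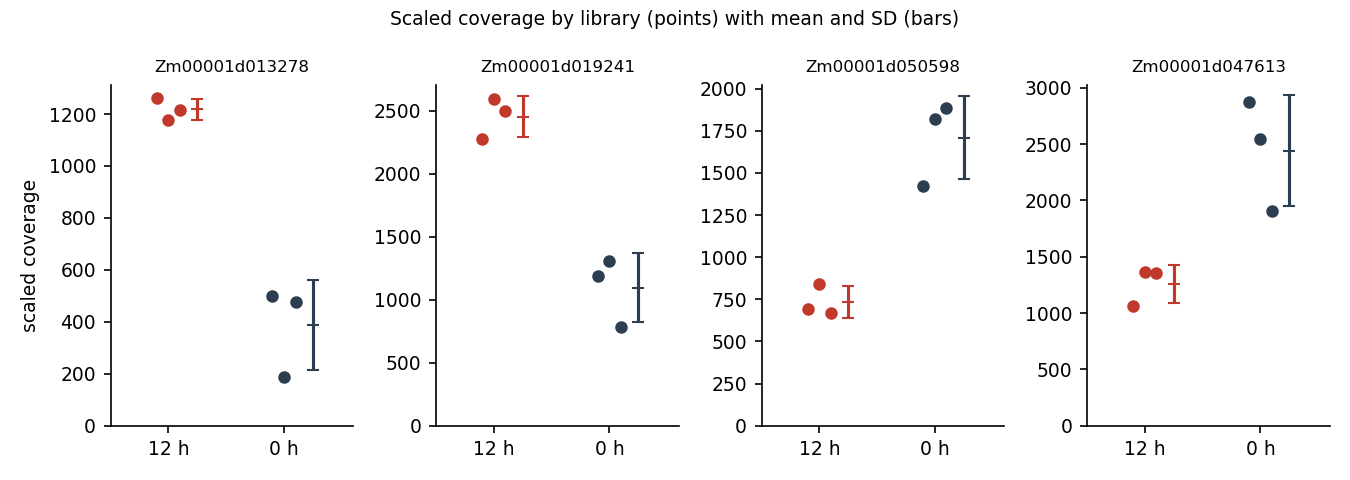
Scaled coverage (vertical axes, from 0) of 4 genes in single libraries at 12 h (left in each panel) and 0 h (right), with the mean and SD of 3 libraries beside the points. In Zm00001d013278 and Zm00001d019241 all 12 h libraries lie above all 0 h libraries, and in Zm00001d050598 and Zm00001d047613 all lie below.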

How the data were processed

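ATAC-seq libraries from maize roots were analysed from 1 table of coverage signal per gene that the authors deposited, with no scaling to a common total and 0 columns of no sample. The submitters' processing notes name cutadapt 1.11, Bowtie2 2.2.6, MACS2 and DESeq2 without roles. Not given in the sources used here are the genome build, the window per gene, whether reads were shifted for the transposase, and the handling of duplicates. A wide window would add reads from closed chromatin, and duplicates would be counted as further reads. The intervals come from the spread between libraries and not from numbers of reads.

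Here each library was scaled by its total. Then limma 3.58.1 in R 4.3.3, with trended and robust moderation, was fitted to log2(scaled coverage + 73) over all 9 libraries, for genes and for summed blocks of identifier numbers. Fold changes are on that scale, which understates the change of low genes. P-values are two-sided, with Benjamini-Hochberg adjustment over all 38703 genes or all blocks. The series calls the libraries biological replicates without saying how they were kept apart, so p-values measure the spread between libraries, which may be technical. The scripts were tested on simulated data.

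Named genes were the 12 of lowest p in each direction with mean coverage of 730 or more and no overlap between groups. Since the identifiers carry no names, 2 per direction are printed. Named blocks were the 5 of lowest p in each direction. The members, lists and tests were chosen with earlier results of these data known. The planned gene lists and chromosome shares needed annotation and were not run. Runs of identifiers, a break being a step of over 300, took the place of chromosomes.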

Additional observations from a re-analysis of the deposited data

How the results depend on the processing

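Blocks of 20 and 500, the level scaling, the zones and the runs were chosen after seeing the data. Limma called 0 genes in all alternatives but the square-root scale, which called 2, and 0 with the replicate block. The 2 genes called on the square-root scale included Zm00001d019241. In the other alternatives the 4 named genes kept their direction, at limma adjusted p of 0.085 to 0.984. Against 9 called blocks of 100, blocks of 20, 50, 200 and 500 gave 2, 3, 16 and 21, blocks shifted by 50 gave 4, the median over genes 0, only the 6 libraries of 12 h and 0 h 21, and leaving out each library 0 to 10. With the replicate block there were 10, including all 9, and block 40600 to 40699 then passed at a limma adjusted p of 0.0493. Deviations of same-numbered libraries correlated at -0.0035 to -0.0012, and 0 of the 3 libraries at 12 h correlated best with its own number at 0 h, so no pairing was assumed. Level scaling called 6 blocks, all among the 9. Over the alternatives the limma adjusted p of the 10 named blocks ran from 0.000574 to 0.613 and their direction was kept. Wide blocks were 21 with the replicate block and 26 with TMM factors, 3 with the median, 5 with level scaling and 10 to 16 leaving out each library. The median change of class 1 was 0.07, with pseudocount 1 it was 0.12, and leaving out each library gave 0.05 to 0.09. For class 10 leaving out each library gave -0.08 to -0.06. The outer share differed by -0.338 points, by -0.499 with wider zones and by -0.361 to -0.293 leaving out each library. The inner share differed by 0.408 points, by 0.273 in genes of 730 or more and by 0.380 to 0.440 leaving out each library. Runs without overlap numbered 2, 1 in genes of 730 or more and 2 to 4 leaving out each library. Neighbour r was 0.0394, and 0.0129 and 0.0172 at 2 and 5 places. Narrower blocks hold fewer reads, and otherwise the cause was not tested.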

Other observations

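Whole runs of identifiers were also compared. The first run in the file held 15.7%, 15.6% and 15.7% of coverage at 12 h and 15.6%, 15.6% and 15.6% at 0 h, a relative difference of 0.489% without overlap. The fourth run was 1.43% higher at 12 h without overlap, and the eighth run was 1.19% lower with overlapping groups. The 298 genes outside the runs, with numbers 1 to 458, held 0.704%, 0.693% and 0.694% at 12 h and 0.692%, 0.683% and 0.683% at 0 h. Their groups were apart by little, and the exact permutation p was 0.1, the smallest possible. Adjusted over the 10 runs and this set, p was 0.367 in all 3 cases without overlap. At 6 h these genes held 0.719% on average.

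Few genes went to or from 0. At 12 h 96 genes had no coverage in all 3 libraries while having some at 0 h, and 119 genes had none in all 3 libraries at 0 h while having some at 12 h. A further 38 genes had none in any of the 6 libraries.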
